A study of Danio rerio with 8 samples.

Results

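The expression of 6 genes of the photoreceptor cells of the eye was followed across all 8 libraries of a zebrafish RNA sequencing series. They were chosen by Ensembl ID out of 35117 genes in the files, and all 6 were found. The opsins were rho (ENSDARG00000002193), opn1sw1 (ENSDARG00000045677) and opn1sw2 (ENSDARG00000017274), the transducin alpha subunits were gnat1 (ENSDARG00000044199) and gnat2 (ENSDARG00000042529), and the transcription factor was crx (ENSDARG00000011989). The series compared a pair of RNA isolation kits, RNeasy plus micro and RNAqueous micro, on FACS sorted cells of the Tg(fli1a:EGFP) reporter line, with whole embryos beside them. The sorted cells were EGFP positive cells of 3 day old embryos, 20000 cells per RNA sample. Sorted sample 2 held 1 RNA per kit, each sequenced as technical replicates a and b (Q_2a, Q_2b for RNeasy plus micro, A_2a, A_2b for RNAqueous micro), and sorted sample 1 held 1 RNA and 1 library per kit (Q_1, A_1). The whole embryos were 5 days old and unsorted, with 1 RNA and 1 library per kit (Q_unsorted, A_unsorted). No group carried a mutation or a drug treatment. Sorted sample 1 was sequenced in a first run, and sorted sample 2 and the embryos in a second run. Sorting, age and RNA input differed together between sorted cells and embryos. Amplification cycles differed as well for sorted sample 2, and the run for sorted sample 1, and these cannot be told apart. The study describes the sorted RNA samples as taken from a common pool of fish.

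Vertebrate rods and cones detect light with opsins, receptors of the outer segment that carry a retinal chromophore. A lit opsin activates the G protein transducin, which switches on phosphodiesterase 6, lowers cyclic GMP and closes a cation channel. Rods use rhodopsin and the alpha subunit encoded by gnat1, and cones use their own opsins and gnat2. In zebrafish, opn1sw1 encodes the ultraviolet opsin and opn1sw2 the blue opsin, while crx encodes a homeodomain factor that acts early in photoreceptor and pineal development and on many photoreceptor genes. The fli1a promoter is known for driving EGFP in endothelium and also in parts of the cranial mesenchyme and blood lineages, not in photoreceptors.

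The 8 libraries held between 10763174 and 19537939 reads counted on genes, so that a count of 3 corresponded to 0.154 to 0.279 CPM (reads scaled to the same total on genes in every library). The endothelial marker list was read first. Sorting, age and RNA input differed together here too, so the list cannot check the sort by itself. In sorted sample 2, 11 of 11 tested marker IDs were higher than in embryos, where 23.5% of all genes tested were higher, and in sorted sample 1, 10 of 11 were higher, where the share of all genes was 17.3%. Their summed level lay between 578 and 708 CPM in the 4 sorted RNA samples and between 101 and 125 CPM in the embryos. FLI1 alone held 288 to 398 CPM in the sorted RNA samples. FLI1 (ENSDARG00000054632) had a log2 fold change of 3.45 ± 0.33 (SE) in sorted sample 2 and of 4.0 ± 0.46 in sorted sample 1, EGFL7 of 2.85 ± 0.30 and 3.19 ± 0.37, and kdrl of 1.45 ± 0.34 and 1.59 ± 0.36 (edgeR). Symbols in capitals are printed as the gene name table gives them.

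Rhodopsin, the rod opsin, was abundant in embryos and present at a low level in every sorted library. The rho level was 207 and 176 CPM in Q_2a and Q_2b, 63.5 and 78.1 CPM in A_2a and A_2b, 24.3 CPM in Q_1 and 46.3 CPM in A_1, against 3045 CPM in Q_unsorted and 2237 CPM in A_unsorted. All sorted libraries lay below both embryos, without overlap, and the RNeasy libraries of sorted sample 2 were the highest sorted ones. How many of all genes were separated from the embryos in this way was not counted, here or for the genes below. Expressed against the embryo mean, rho reached 7.20% in Q_2, 2.63% in A_2, 0.92% in Q_1 and 1.75% in A_1, where Q_2 and A_2 are the summed technical replicates. In bulk samples, fewer cells of a type and less RNA per cell cannot be told apart.

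The cone opsins showed the same order of embryos over sorted cells. The opn1sw1 level was 74.5 and 70.2 CPM in Q_2a and Q_2b, 23.2 and 17.9 CPM in A_2a and A_2b, 71.1 CPM in Q_1 and 39.5 CPM in A_1, against 2813 CPM in Q_unsorted and 2391 CPM in A_unsorted. Sorted cells and embryos did not overlap, and within each sorted sample the RNeasy RNA was the higher one. The opn1sw2 level was 33.0 and 27.7 CPM in Q_2a and Q_2b, 15.1 and 16.1 CPM in A_2a and A_2b, 23.0 CPM in Q_1 and 17.7 CPM in A_1, against 689.6 CPM in Q_unsorted and 511 CPM in A_unsorted. This gene too was lower in every sorted library than in either embryo. Of the embryo mean, the 4 sorted RNA samples held 0.81% to 2.77% for opn1sw1 and 2.58% to 5.03% for opn1sw2.

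The transducin alpha subunits, which pass the signal on from the opsins, were detected in every sorted library, but with few reads. The gnat1 level, the rod subunit, was 10.04 and 9.21 CPM in Q_2a and Q_2b, 6.65 and 7.52 CPM in A_2a and A_2b, 5.76 CPM in Q_1 and 3.66 CPM in A_1, against 214 CPM in Q_unsorted and 144 CPM in A_unsorted. The gnat2 level, the cone subunit, was 5.93 and 6.42 CPM in Q_2a and Q_2b, 2.92 and 4.99 CPM in A_2a and A_2b, 5.48 CPM in Q_1 and 3.46 CPM in A_1, against 298 CPM in Q_unsorted and 266 CPM in A_unsorted. Both genes were lower in every sorted library than in either embryo, and these low levels rested on 51 to 165 reads per sorted library. Of the embryo mean, sorted RNA samples held 2.05% to 5.37% for gnat1 and 1.22% to 2.19% for gnat2.

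The crx gene differed from the other 5. Its level was 25.002 and 27.1 CPM in Q_2a and Q_2b, 21.2 and 17.7 CPM in A_2a and A_2b, 52.2 CPM in Q_1 and 38.8 CPM in A_1, against 52.8 CPM in Q_unsorted and 84.3 CPM in A_unsorted. Sorted sample 2 lay below sorted sample 1 and below the embryos, while Q_1 came within 1 CPM of Q_unsorted. Of the embryo mean, crx held 38.1% in Q_2, 28.8% in A_2, 76.2% in Q_1 and 56.5% in A_1.

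**Figure D1:**
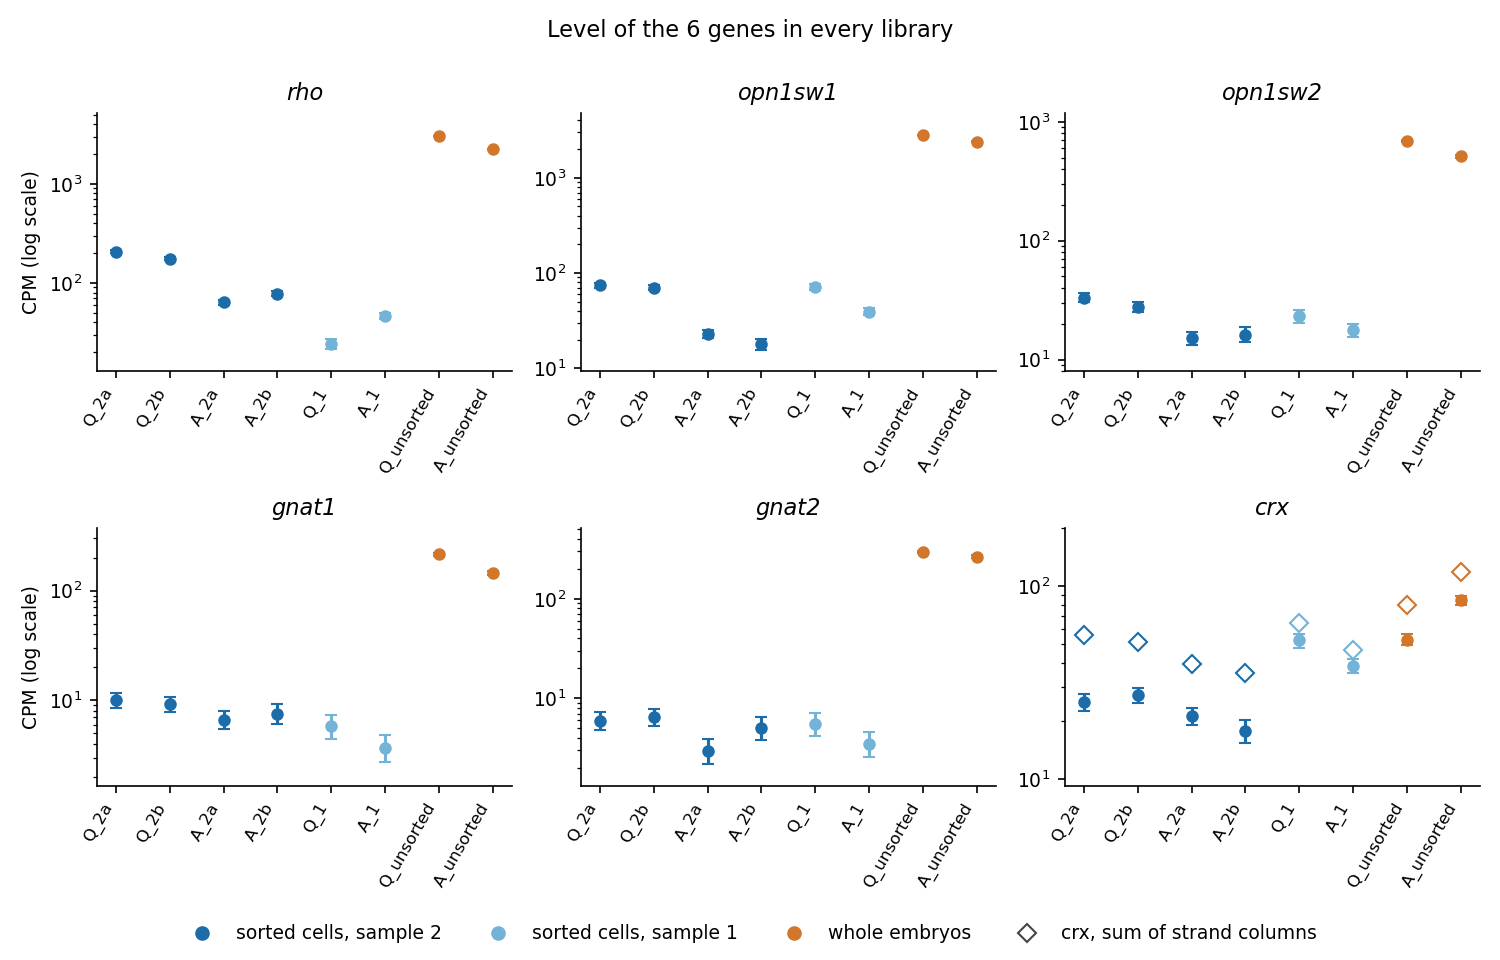
CPM on a log axis of each gene in the 8 libraries, coloured by group, with exact Poisson 95% intervals that cover counting error only; open diamonds in the crx panel add reads shared with an overlapping gene. For 5 genes every sorted library sits far below both embryos, while crx in Q_1 reaches 52.2 CPM beside 52.8 CPM in Q_unsorted.

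The crx count depended on the column of the count files. The unstranded column leaves out reads that fall on overlapping genes, while the sum of both strand columns keeps them. The reads added in this way for crx were the same number, in each of the 8 libraries, as those added for ENSDARG00000097813, a gene that itself had 0 or 1 read in the unstranded column. The libraries keep no strand, so these shared reads cannot be assigned to crx or to the other gene, and the sum counts them for both. They made up 55.2% and 47.0% of the reads counted for crx in this sum in Q_2a and Q_2b, 46.6% and 49.9% in A_2a and A_2b, 18.6% in Q_1 and 16.6% in A_1, against 33.5% in Q_unsorted and 28.6% in A_unsorted. The share was thus highest in sorted sample 2 and lowest in sorted sample 1. The Wilson 95% intervals of single libraries did not overlap between the 3 groups, but they cover counting error only. Those of Q_2a (51.9% to 58.5%) and Q_2b (43.8% to 50.2%), made from 1 RNA, did not overlap either. The intervals therefore cannot test a difference between groups.

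With the shared reads included, the crx level was 55.8 and 51.2 CPM in Q_2a and Q_2b, 39.6 and 35.2 CPM in A_2a and A_2b, 64.1 CPM in Q_1 and 46.5 CPM in A_1, against 79.4 CPM in Q_unsorted and 118 CPM in A_unsorted. Sorted libraries then lay below both embryos without overlap, and the sorted samples overlapped each other. For opn1sw2 the shared reads, matched to si:dkey-245f22.5 (ENSDARG00000102967), were 4.71% to 9.16% of its reads in sorted libraries and 14.3% and 15.6% in Q_unsorted and A_unsorted. For gnat2 and rho they came to a few reads per library, and opn1sw1 and gnat1 had none.

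**Figure D2:**
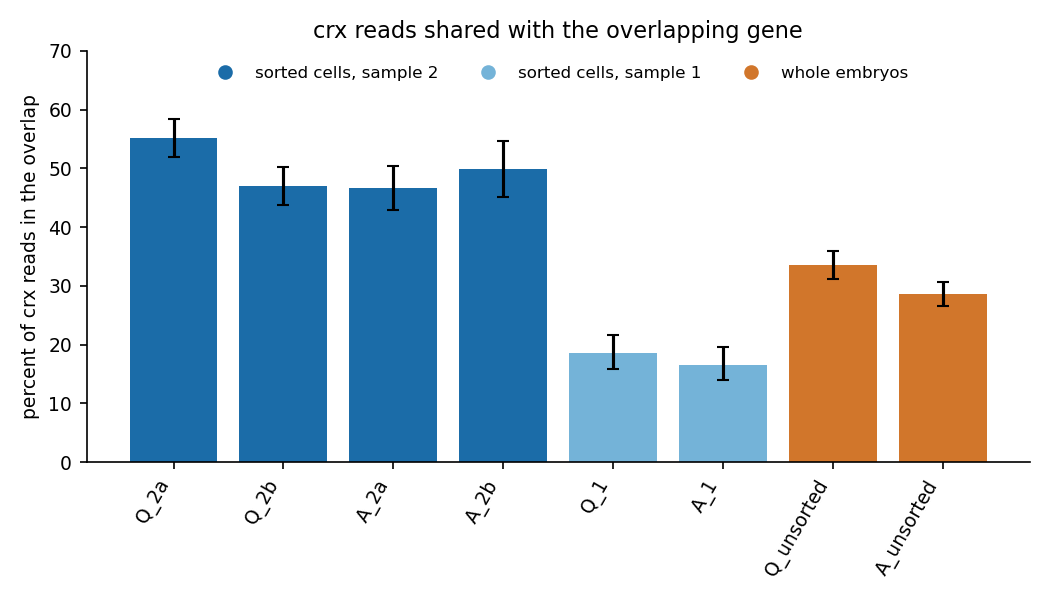
Percent of the reads counted for crx in the sum of the strand columns that are shared with the overlapping gene ENSDARG00000097813 in each library. Wilson 95% intervals cover counting error only. The bars stand at 46.6% to 55.2% in sorted sample 2, at 16.6% and 18.6% in sorted sample 1 and at 28.6% and 33.5% in embryos.

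Sorted sample 2 was compared with the whole embryos to ask how photoreceptor transcripts differed between the sorted cells and the whole animal. All 6 genes were lower in sorted sample 2, where 28.2% of all 21377 genes tested were lower (edgeR, adjusted p under 0.05). The log2 fold change was -4.39 ± 0.57 (SE) for rho (adjusted p = 4.8e-05), -5.83 ± 0.64 for opn1sw1 (adjusted p = 1.37e-05) and -4.76 ± 0.47 for opn1sw2 (adjusted p = 6.05e-06). For the transducins it was -4.49 ± 0.39 for gnat1 (adjusted p = 2.6e-06) and -5.86 ± 0.42 for gnat2 (adjusted p = 6.4e-07). The crx change was smaller, -1.59 ± 0.31 (adjusted p = 0.00098), and -1.12 ± 0.31 with the shared reads included (adjusted p = 0.0072). The crx call was lost without the A_2 RNA (log2 fold change -1.34, adjusted p = 0.059) and with both sorted samples entered together (-0.88, adjusted p = 0.16). Each group held 2 RNA samples, and the labels do not say that they came from separate clutches. The p-values against embryos thus measure the spread between these RNA samples, which may be technical. The fit draws that spread toward a value shared over all genes, so it is not each gene's own spread alone. Between the sorted samples and between the kits, the p-values rest on an error of these RNA samples that is shared over all genes. They do not measure the spread of each gene, and the study describes a common pool for the sorted RNA samples.

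Sorted sample 1 was set against the same 2 embryos, so both comparisons share them. Here 5 of the 6 genes were lower, where 25.5% of all 20254 genes tested were lower. The log2 fold change was -5.99 ± 0.70 (SE) for rho (adjusted p = 5.1e-05), -5.38 ± 0.63 for opn1sw1 (adjusted p = 5.1e-05) and -4.70 ± 0.52 for opn1sw2 (adjusted p = 3.6e-05). It was -5.08 ± 0.49 for gnat1 (adjusted p = 1.35e-05) and -5.80 ± 0.50 for gnat2 (adjusted p = 7.4e-06). The crx value, -0.37 ± 0.36, did not pass (adjusted p = 0.44), nor did -0.58 ± 0.37 with the shared reads included (adjusted p = 0.22). As fractions of the embryo level, these fits put gnat2 at 0.0172 in sorted sample 2 and 0.0180 in sorted sample 1, and rho at 0.0477 in sorted sample 2 and 0.0158 in sorted sample 1.

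**Figure D3:**
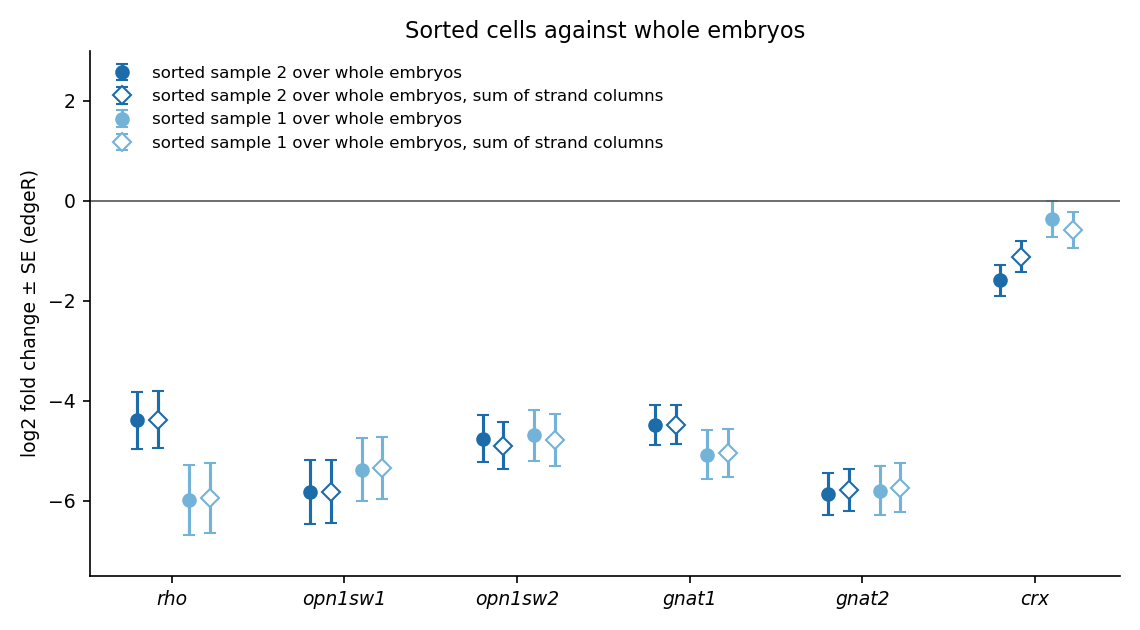
Log2 fold change ± SE (edgeR, n = 2 RNA samples per group) of each gene in sorted sample 2 and sorted sample 1 over the same 2 whole embryos, with filled points for the unstranded column and diamonds for the sum of the strand columns. The opsins and transducins lie between -4.39 and -5.99 in the unstranded column, and crx lies at -1.59 and -0.37.

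A wider view was taken with the 10236 genes that averaged at least 10 CPM in embryos. Their median sorted level, as a percent of the embryo mean, was 99.7% in Q_2, 98.6% in A_2, 92.8% in Q_1 and 73.9% in A_1. On this scale the opsins and transducins stood between percentiles 1.28 and 4.98 of these genes in every sorted RNA sample, and crx stood between percentiles 17.5 and 41.0. Of the 10236 genes, the 5 were thus among the lowest relative to embryos, and crx was below the median gene in all 4 sorted RNA samples. These genes were chosen by their embryo level, which is also the divisor. The ranks are therefore a description and no separate support for the lower levels.

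**Figure D4:**
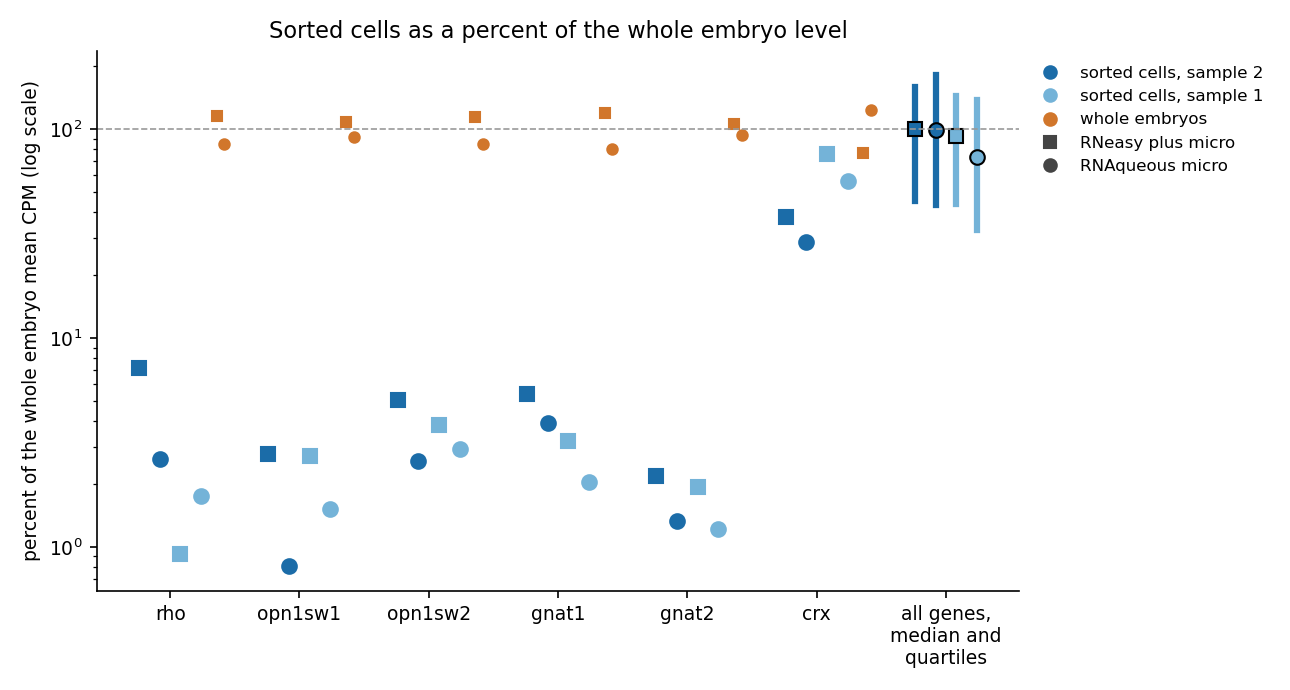
Level of each gene in each RNA sample as a percent of the whole embryo mean (log axis, dashed line at 100%), with squares for RNeasy plus micro and circles for RNAqueous micro; the last column gives the median and quartiles of 10236 genes. Opsins and transducins sit between 0.81% and 7.20% in sorted cells and crx between 28.8% and 76.2%.

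Sorted sample 2 was then compared with sorted sample 1, with the kit as a covariate. Of the 6 genes, crx was lower (log2 fold change -1.33 ± 0.45, adjusted p = 0.033), and 10.9% of all 19639 genes tested changed in either direction. With the shared reads included, the crx value was -0.64 ± 0.45 (adjusted p = 0.40), and DESeq2 gave -1.36 ± 0.46 (adjusted p = 0.052). The call was also lost once the embryos were added, with all 6 RNA samples in 1 fit (-1.31, edgeR, adjusted p = 0.077). Fits with 1 RNA sample left out held the embryos too, so they cannot tell the effect of the omitted sample from that of adding embryos. They gave -1.37 without A_1, -1.24 without Q_1, -0.99 without A_2 and -1.65 without Q_2. The rho value was 1.43 ± 0.53, a 2.69-fold difference that did not pass (edgeR, adjusted p = 0.058). With at least 10 counts in every RNA sample, the rho value passed at 1.47 (edgeR, adjusted p = 0.043). It was 1.36 in the fit of all 6 RNA samples. Within that fit it was 0.30 without Q_1, 0.46 without Q_2, 2.28 without A_2 and 2.62 without A_1. For opn1sw1 the value was -0.78 ± 0.47, for opn1sw2 -0.24 ± 0.43, for gnat1 0.50 ± 0.45 and for gnat2 -0.19 ± 0.47, with adjusted p of 0.29 to 0.86. The sorted samples differed in run, in RNA input and in amplification cycles as well, which cannot be told apart from the sample.

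The balance between rod and cone genes was described by ratios of reads within a library, which do not depend on its depth. The rho to opn1sw1 ratio was 2.78 and 2.50 in Q_2a and Q_2b, 2.74 and 4.36 in A_2a and A_2b, 0.34 in Q_1 and 1.17 in A_1, against 1.08 in Q_unsorted and 0.94 in A_unsorted. Sorted sample 2 thus held more rho per opn1sw1 read than the embryos, and Q_1 held less. The gnat1 to gnat2 ratio was 1.69 and 1.43 in Q_2a and Q_2b, 2.27 and 1.51 in A_2a and A_2b, 1.05 in Q_1 and 1.06 in A_1, against 0.72 in Q_unsorted and 0.54 in A_unsorted. This ratio was higher in all 6 sorted libraries than in both embryos. With 51 to 115 gnat2 reads per sorted library, its exact 95% intervals of 0.72 to 1.53 in Q_1 and 0.71 to 1.58 in A_1 overlapped that of Q_unsorted (0.69 to 0.75) but not that of A_unsorted (0.51 to 0.57).

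**Figure D5:**
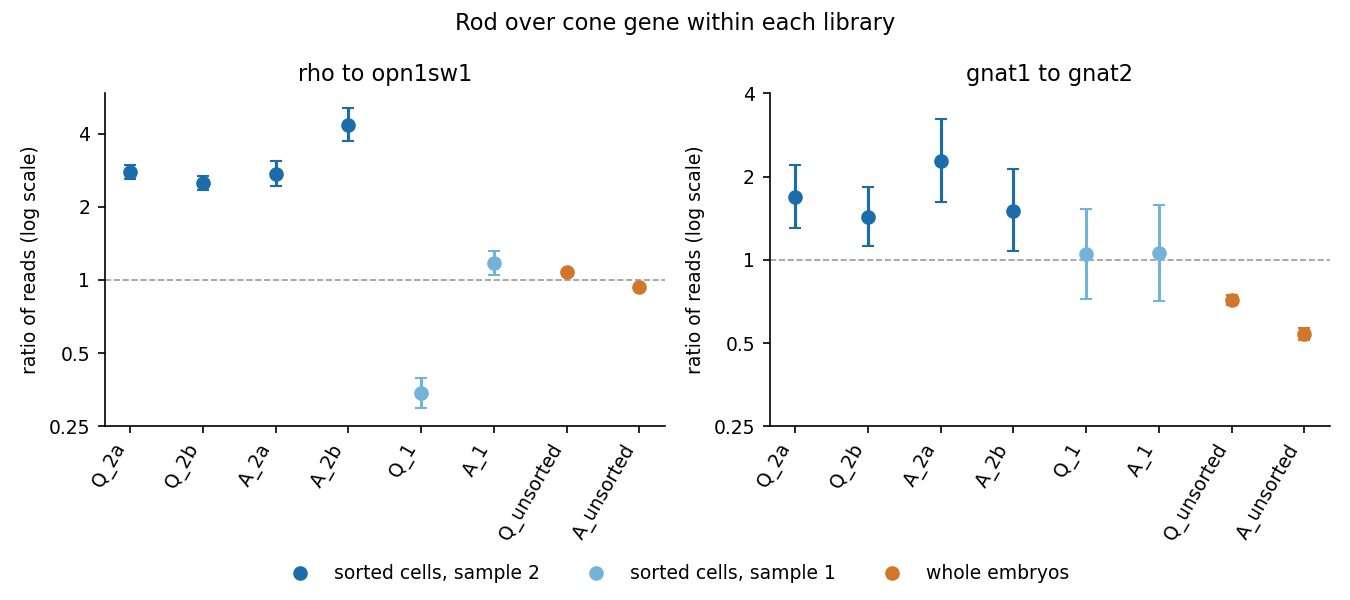
Ratio of rho to opn1sw1 reads and of gnat1 to gnat2 reads in each library (log axes), with exact 95% intervals that cover counting error only. The ratio of rho to opn1sw1 is 2.50 to 4.36 in sorted sample 2, 0.34 in Q_1, 1.17 in A_1 and 0.94 to 1.08 in embryos.

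As shares of the summed reads of the 6 genes, which count reads and not transcripts, rho made up 58.2% and 55.5% in Q_2a and Q_2b, 47.9% and 54.9% in A_2a and A_2b, 13.4% in Q_1 and 31.0% in A_1, against 42.8% in Q_unsorted and 39.7% in A_unsorted. The crx share was 7.04% to 15.97% in sorted sample 2, 28.7% in Q_1 and 26.0% in A_1, against 0.74% in Q_unsorted and 1.497% in A_unsorted. The 6 genes together came to 355 and 316 CPM in Q_2a and Q_2b, 132 and 142 CPM in A_2a and A_2b, 182 CPM in Q_1 and 149 CPM in A_1, against 7113 CPM in Q_unsorted and 5633 CPM in A_unsorted.

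The kits were compared within sorted cells, with the sample as a covariate. None of the 6 genes passed the test with edgeR or DESeq2, 1 had an unadjusted p under 0.05 with each tool, and 0.117% of all 19639 genes changed in either direction. The lowest edgeR p-value, 0.0073 before adjustment, belonged to opn1sw1, 1.26 ± 0.47 on the log2 scale for RNeasy plus micro over RNAqueous micro (edgeR, adjusted p = 0.75). Within sorted sample 2, rho was 2.74-fold higher in Q_2 than in A_2, and within sorted sample 1 its ratio of Q_1 to A_1 was 0.53. The same kit ratio of opn1sw1 was 3.43 in sorted sample 2 and 1.80 in sorted sample 1. For gnat1 it was 1.37 and 1.57, for gnat2 1.65 and 1.59, for opn1sw2 1.95 and 1.30, and for crx 1.32 and 1.35, in sorted sample 2 and sorted sample 1. The rho ratio was the one of these 6 genes whose direction differed between the sorted samples.

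Libraries a and b of sorted sample 2 were made from 1 RNA, and 12 exact binomial tests asked whether each gene differed between them by more than counting noise. Of the 12, 5 passed after Benjamini-Hochberg adjustment. Other genes were not tested in this way, so the share of all genes that differ between a and b is not known. For rho the b to a ratio was 0.85 in the Q_2 pair (exact test, adjusted p = 7.3e-10) and 1.23 in the A_2 pair (adjusted p = 2.4e-05). The others were opn1sw2 in the Q_2 pair (0.84, exact test, adjusted p = 0.015), and opn1sw1 (0.77, adjusted p = 0.0095) and gnat2 (1.71, adjusted p = 0.015) in the A_2 pair. For rho, opn1sw1 and opn1sw2 these differences between libraries of 1 RNA were smaller than the Q_2 to A_2 ratios of 2.74, 3.43 and 1.95. For gnat2 the 1.71 of the A_2 pair was larger than its Q_2 to A_2 ratio of 1.65. The differences ran in no common direction.

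The other photoreceptor genes were read from 6 lists of the signalling cascade and the outer segment, 69 gene IDs without the 6 genes. In sorted sample 2, 55 of 63 tested were lower than in embryos and none was higher, where the share of all genes was 28.2%. In sorted sample 1, 46 of 61 tested were lower and none was higher, where the share was 25.5%. The count filter also admitted genes that reached it only in embryos, and such genes could only come out lower. The list counts here and below are therefore a description. A stricter filter asked for at least 10 counts in every RNA sample. It left 3 of 3 other opsins and 11 of 13 outer segment genes lower in sorted sample 2. In sorted sample 1 it left 2 of 2 and 3 of 6. Of all genes with that filter, 5007 of 18008 and 3307 of 15892 were lower. Among other opsins, 6 of 6 tested were lower in sorted sample 2 and 5 of 6 in sorted sample 1. The red opsin gene opn1lw2 had log2 fold changes of -5.03 ± 0.66 in sorted sample 2 and -5.04 ± 0.65 in sorted sample 1, and the green opsin genes opn1mw1 of -5.83 ± 0.46 and -6.35 ± 0.60 and opn1mw2 of -2.57 ± 0.48 and -3.87 ± 0.64. Red and green opsin genes lie in families of close copies, and reads that map to several copies were not counted, so their split is uncertain.

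Among other transducin subunits, 3 of 6 were lower in each sorted sample. GNGT2 (ENSDARG00000103543), a cone gamma subunit, had -5.95 ± 0.55 in sorted sample 2 and -3.95 ± 0.66 in sorted sample 1. The beta subunits gnb1b, 0.24 ± 0.34 and 0.09 ± 0.44, and gnb1a, -0.08 ± 0.34 and -0.76 ± 0.45, which are used in many cell types, did not pass. All 6 phosphodiesterase 6 genes were lower in sorted sample 2 and 5 of 6 in sorted sample 1. PDE6C, the cone catalytic subunit, had -6.39 ± 0.42 and -4.93 ± 0.57, pde6ha, a cone inhibitory subunit with up to 60.9% of its reads in a sample on an overlapping gene, -7.19 ± 0.54 and -4.40 ± 0.50, and PDE6G, the rod inhibitory subunit, -2.50 ± 0.32 in sorted sample 2 and -0.19 ± 0.35 in sorted sample 1, which did not pass.

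Of the cyclic nucleotide gated channel and exchanger genes, 10 of 10 tested were lower in sorted sample 2 and 7 of 9 in sorted sample 1. The cone channel gene CNGA3 (ENSDARG00000070726) had -2.95 ± 0.43 and -1.95 ± 0.53, the exchanger slc24a2 -3.77 ± 0.36 and -3.29 ± 0.44, and cngb3.2 -3.15 ± 0.46 and -3.61 ± 0.61. Of the shutoff and recovery genes, 15 of 18 were lower in sorted sample 2 and 15 of 17 in sorted sample 1. The cone arrestin genes ARR3 had -4.38 ± 0.49 and -4.51 ± 0.53 (ENSDARG00000056511), and -5.42 ± 0.52 and -4.99 ± 0.56 (ENSDARG00000098475), and the rod arrestin sagb had -3.99 ± 0.46 and -4.01 ± 0.45.

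Of the outer segment genes, 15 of 17 were lower in sorted sample 2 and 11 of 17 in sorted sample 1. The disc rim genes PRPH2 had -6.03 ± 0.39 and -6.09 ± 0.62 (ENSDARG00000038018), and -5.66 ± 0.51 and -7.09 ± 0.52 (ENSDARG00000014840), and PROM1 (ENSDARG00000034007) had -3.14 ± 0.33 and -3.08 ± 0.45.

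The transcription factors of photoreceptors, the list to which crx belongs, moved less as a group than the cascade. Of 13 tested besides crx, 7 were lower and 2 higher in sorted sample 2, where 28.2% of all genes were lower and 23.5% higher. In sorted sample 1, 4 of 13 were lower and none higher. That count of lower genes was near the 25.5% of all genes. The median log2 fold change of the list was -0.98 in sorted sample 2 and -0.81 in sorted sample 1. The median of all genes was 0.00 and -0.06. NEUROD1, a neuronal differentiation factor, had -1.23 ± 0.31 (adjusted p = 0.0055) in sorted sample 2 and -1.34 ± 0.40 (adjusted p = 0.017) in sorted sample 1. The genes higher in sorted sample 2 were both named TBX2, a factor used in many tissues, at 0.97 ± 0.29 (ENSDARG00000006120, adjusted p = 0.014) and 0.92 ± 0.33 (ENSDARG00000018025, adjusted p = 0.031). In sorted sample 1 they had 0.24 ± 0.38 and 0.46 ± 0.38, which did not pass.

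Lists of neighbouring cell types were read in the same comparisons, where 28.2% of all genes were lower in sorted sample 2 and 25.5% in sorted sample 1. Some of these lists stood well above those shares and others near them, and their part in the result was not tested. All 17 lens genes were lower in both sorted samples, with a summed level of 348 to 982 CPM in sorted RNA samples and 12156 to 13145 CPM in embryos. The crystallin genes cryba1l1, cryba1b and CRYBA4 had -4.82 ± 0.45, -4.45 ± 0.45 and -4.81 ± 0.44 in sorted sample 2, and -4.01 ± 0.62, -3.94 ± 0.64 and -3.54 ± 0.54 in sorted sample 1. Of the visual cycle, Mueller glia and retinal pigment epithelium genes, 13 of 16 were lower and 1 was higher in each sorted sample, with a summed level of 610 to 1006 CPM in sorted RNA samples and 1700 to 1834 CPM in embryos. The glutamine synthetase genes GLUL had -1.75 ± 0.34 and -2.01 ± 0.45 (ENSDARG00000099776), and 0.61 ± 0.34 and 0.44 ± 0.46 (ENSDARG00000100003, not passed), and the retinal G protein coupled receptor gene rgrb had -2.61 ± 0.35 and -2.24 ± 0.42. The gene that was higher was named RPE65 (ENSDARG00000094752), at 2.24 ± 0.30 and 2.21 ± 0.36.

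Of the bipolar cell genes, 4 of 7 were lower in sorted sample 2 and 3 of 7 in sorted sample 1, with a summed level of 33.4 to 45.3 CPM in sorted RNA samples and 76.6 to 125 CPM in embryos. VSX1 had -1.31 ± 0.36 and -0.88 ± 0.37 (the second not passed), GRM6 (ENSDARG00000025671) -1.30 ± 0.41 and -1.65 ± 0.45, and cabp5b -2.98 ± 0.57 and -3.39 ± 0.53. Of the amacrine and horizontal cell genes, 3 of 5 were lower in each, with a summed level of 77.2 to 143 CPM in sorted RNA samples and 226 to 356 CPM in embryos. SLC32A1, the vesicular transporter of inhibitory neurons, had -2.49 ± 0.33 and -2.88 ± 0.42, and TFAP2A, -0.56 ± 0.29 and -0.54 ± 0.37, and PROX1 (ENSDARG00000055158), -0.57 ± 0.29 and -0.98 ± 0.39, did not pass.

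Of the retinal ganglion cell genes, 4 of 7 were lower in sorted sample 2 and 2 of 7 in sorted sample 1, with a summed level of 86.7 to 108 CPM in sorted RNA samples and 104 to 208 CPM in embryos. The count in sorted sample 1 was near the 25.5% of all genes, and the list's median log2 fold change there was -0.12, where that of all genes was -0.06. POU4F2 had -1.51 ± 0.34 and -2.07 ± 0.45, and RBPMS2 (ENSDARG00000079578), -0.41 ± 0.35 and -0.12 ± 0.42, and ISL2 (ENSDARG00000003971), 0.73 ± 0.31 and 0.93 ± 0.37, did not pass. Of the pineal genes, 4 of 4 were lower in sorted sample 2 and 1 of 4, near the share of all genes, in sorted sample 1, with a summed level of 4.88 to 11.2 CPM in sorted RNA samples and 16.2 to 27.6 CPM in embryos. The melatonin and serotonin pathway genes ASMT, TPH2 and aanat2 had -2.24 ± 0.56, -1.95 ± 0.43 and -1.58 ± 0.48 in sorted sample 2, and -1.97 ± 0.64, -1.03 ± 0.52 and -1.04 ± 0.48 in sorted sample 1, where ASMT passed. In these lists no gene was at 0 in all sorted RNA samples, whereas 2 opsin and 3 outer segment IDs were. With either sorted sample and the embryos together, 7 of 8 opsin and 18 of 19 outer segment IDs had any read. The ID left over in each of these lists had no read in embryos either.

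The genes with the pattern most like each of the 6 were found by the Euclidean distance between centred log2(CPM + 0.5) values over the 8 libraries, for 13138 genes that averaged 5 CPM or more. For rho they were RPE65 (ENSDARG00000007480), the retinoid isomerase gene of the pigment epithelium, at a distance of 1.05, the astacin protease gene c6ast4 at 1.22 and rom1a, a disc rim gene, at 1.25, where the median distance of all genes was 7.04. For opn1sw1 they were TNNI2 (ENSDARG00000029995), a fast muscle troponin gene, at 1.01, opn1lw2 at 1.08 and the aquaporin gene aqp8a.2 at 1.25. For opn1sw2 they were ARR3 (ENSDARG00000056511) at 0.56, PDC, the phosducin gene, at 0.68 and tm4sf21a at 0.82. The lists of neighbours thus held both photoreceptor genes and genes of other tissues.

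For gnat1 the nearest genes were anxa2b at 0.64, rbp3, the gene of the interphotoreceptor retinoid binding protein, at 0.65 and ARR3 (ENSDARG00000056511) at 0.85. For gnat2 they were GRK7 (ENSDARG00000020602), a cone opsin kinase gene, at 0.73, the carbonic anhydrase gene ca4b at 0.91 and aqp8a.2 at 0.92. For crx they were asb5b at 0.38, COQ4, a coenzyme Q gene, at 0.40 and si:dkey-22o12.7 at 0.51, and 153 genes lay within a distance of 1 of crx, against 0 to 8 for the other 5 genes. Among the 6 genes themselves, opn1sw2 and gnat1 were closest at 0.98, the 5 opsin and transducin genes lay within 3.09 of each other, and crx lay 4.64 to 5.97 from them. The 8 points share the same embryos and, for technical replicates, the same RNA, so these distances are a description. The neighbours c6ast4, rom1a, aqp8a.2, PDC, tm4sf21a, anxa2b, rbp3, GRK7 and ca4b had 0 to 3.66 CPM in sorted libraries. These genes, photoreceptor genes among them, reached the minimum through the embryos. Their distances thus depend on the pseudocount.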

How the data were processed

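Libraries were made with SMART-Seq v4 and Nextera XT from polyadenylated RNA, a method that keeps no strand. Per the labels and the study's methods, the authors mapped reads with STAR to GRCz10 with Ensembl annotation and deposited raw read counts per gene in 3 columns, unstranded and for each strand. The unstranded count column was used. Reads not assigned to 1 gene (23.3% to 30.3% of a library) were left out of library sizes. CPM was computed from the reads counted on genes.

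Technical replicates were summed, giving 6 RNA samples. The title and the source label of 1 sorted RNeasy library disagree on its sample number, and the source label, sample 1, was used. Groups were tested with edgeR 4.0.16 (quasi-likelihood, TMM, filterByExpr, Benjamini-Hochberg adjustment over all genes tested, threshold 0.05) in R 4.3.3, checked on simulated counts, with DESeq2 1.42.0, RLE factors, other filters, strand sums, separate libraries, other covariates and samples left out as alternatives. The SE given with edgeR values was calculated back from its test, as the absolute log2 fold change over the square root of F. The SE given with DESeq2 is that tool's own estimate, so the SE values differ in kind. Exact tests and intervals used scipy 1.17.1. Intervals (95%) and floors (3 counts) cover counting error only.

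The members and lists were chosen with earlier results of these data known. Named genes were the 6 members, the 3 nearest genes of each, and per list the 3 genes with the highest mean CPM over the 8 libraries plus any called against the direction of its list. Names came from a table that matched 27000 of 35117 IDs, and 13 of 158 list symbols had no ID. Sequences, coordinates and levels per length were not analysed here.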

Additional observations from a re-analysis of the deposited data

Results flagged for a closer look

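The crx difference between sorted sample 2 and sorted sample 1 passed the test in the unstranded column, at -1.33 on the log2 scale (edgeR, adjusted p = 0.033). The share of crx reads on the overlapping gene was 55.2%, 47.0%, 46.6% and 49.9% in Q_2a, Q_2b, A_2a and A_2b, above the 33.5% and 28.6% of Q_unsorted and A_unsorted, in count columns that the test did not use. With these reads included the crx difference was -0.64 (adjusted p = 0.40).

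The log2 ratio of RNeasy plus micro to RNAqueous micro for rho was 1.45 in sorted sample 2 and -0.927 in sorted sample 1, and 0.445 in embryos. For crx it was 0.404 in sorted sample 2 and 0.43 in sorted sample 1, and -0.676 in embryos. Each ratio rests on 1 RNA sample per kit, and these differences between groups were not tested. Among the 4 sorted RNA samples no gene had a sample that stood apart, rho coming closest with a gap of 0.73 of its range in Q_2.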

How the results depend on the processing

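The opsin and transducin genes kept their direction and their call against embryos under all 12 alternatives for sorted sample 2 and all 11 for sorted sample 1. The number of these 6 genes called was 5 to 6 with 1 RNA sample left out in sorted sample 2 and 5 throughout in sorted sample 1. Treating the kit as a replicate block gave 11718 calls in sorted sample 2 (11045 without it) and 7931 in sorted sample 1 (8670 without it), and no call of the 6 genes changed; kit pairs deviated with correlations of 0.26 and -0.14. Leaving out 1 RNA sample gave 5572 to 10466 calls in sorted sample 2, the lowest without A_2; the lone RNA sample then left in a group was assumed to vary like the others.

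Between the sorted samples, 2149 genes were called, against 1005 with DESeq2, 5218 with technical replicates entered separately, 1414 with no replicate block for the kit, 359 with all 6 RNA samples in 1 fit, and 104 (without A_2) to 4848 (without Q_1) with 1 left out. Of the 6 genes, 0 were called with DESeq2, without a filter, with strand sums and with all 6 RNA samples, 2 with at least 10 counts in every RNA sample, and 0 to 1 with 1 left out. The fits with 1 left out also held the embryos, and in them opn1sw2 ranged from -0.61 to 0.15 and gnat2 from -0.40 to 0.038.

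Between the kits, 23 genes were called, against 11 with DESeq2, 11 with at least 10 counts, 0 with no replicate block for the sample, 0 with all 6 RNA samples, and 0 to 4 with 1 left out. With 1 left out, again with the embryos in the fit, rho ranged from -0.23 to 1.12 and crx from -0.12 to 0.036. The cause of these changes was not tested.

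The mean crx level in sorted RNA samples was 34.2 CPM, and 50.4 CPM with strand sums; the other 17 rescaled levels moved by less than the spread between samples. The nearest genes were checked with another pseudocount and with another minimum. In 7 of these 12 checks most of the 3 genes were replaced, and in 5 most were kept. None of gnat2 was shared with either choice, and under both rho kept only RPE65 and opn1sw2 only ARR3. Among low genes, asking for at least 10 counts in every RNA sample left fewer IDs to test. Of these, 3 of 3 other opsins and 6 of 6 channel genes were lower in sorted sample 2. In sorted sample 1, 2 of 2 other opsins and 3 of 4 channel genes were lower. Of all genes with that filter, 5007 of 18008 and 3307 of 15892 were lower. With 2 RNA samples per group and 51 to 165 reads per transducin gene in a sorted library, small differences were not detectable.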

Other observations

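Besides crx, 6 of 45 tested genes of the photoreceptor cascade and outer segment lists (13.3%) were lower in sorted sample 2 than in sorted sample 1 and none was higher. Of all 19639 genes tested, 1316 were lower and 833 higher, and 10.9% changed in either direction. As none was higher, 13.3% was also the share of the lists in either direction, near the 10.9% of all genes. It stood above the share of all genes that were lower, 1316 of 19639. Neither difference was tested. The 6 lower genes of these lists are named here after their values were seen. PDE6G, the rod inhibitory subunit, had 4.65 CPM in Q_2 and 4.41 CPM in A_2, against 18.4 CPM in Q_1 and 19.1 CPM in A_1 (log2 fold change -2.39, edgeR, adjusted p = 1.25e-05). The cone gamma subunit GNGT2 (ENSDARG00000103543) had 29.6 CPM in Q_2 and 13.2 CPM in A_2, against 34.7 CPM in Q_1 and 103 CPM in A_1 (-1.94, adjusted p = 0.0054), and the second GNGT2 gene (ENSDARG00000010680) had 12.6 and 5.29 CPM against 14.8 and 65.0 CPM (-2.27, adjusted p = 0.00090). In both GNGT2 genes A_1 alone stood far above the other sorted RNA samples.

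The tubby-like genes tulp1a (-1.67, adjusted p = 0.0067) and tulp1b (-1.96, adjusted p = 0.037) were likewise highest in A_1, at 21.1 and 4.07 CPM. The inhibitory subunit pde6ha had 0.62 CPM in Q_2 and 0.31 CPM in A_2, against 2.23 CPM in Q_1 and 3.18 CPM in A_1 (-2.89, adjusted p = 0.00054), and up to 60.9% of its reads in an RNA sample fell on an overlapping gene, while the other 5 had no such reads.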
